A study of Mus musculus with 4 samples.

Results

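The 9 genes described here encode the proteins that act first when a T cell receptor is engaged: Cd3e, Lck, Fyn, Zap70, Lat, Prkcq, Themis, Cd28 and Ptprc. They were chosen by name, and all 9 were found among the 33696 genes of the series. Their UMIs (unique molecular identifiers, 1 per captured transcript) were read in 4 classes of T cells from mouse liver, beside the length of each gene. The cells came from male C57BL/6J mice fed the FPC diet (fructose, palmitate, cholesterol and trans-fat) and sampled by FNA, with the 12 biopsies of 3 mice pooled before dissociation. P-LC24 mice had 0.05% cholesterol and P-HC24 mice 1.25% cholesterol for 24 weeks. I-LC32 mice stayed at 0.05% until week 32, and I-HC32 mice went from 1.25% to 0.05% at week 24 and were sampled at week 32. The week 32 libraries were taken from the same 2 groups of mice as the week 24 libraries. Each condition had 1 library, so diet, mice and handling cannot be told apart, and no test was made between conditions. Libraries that were compared are called Prog (P-HC24 over P-LC24) and Int (I-HC32 over I-LC32).

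A T cell receptor has no enzyme activity of its own and relies on the CD3 chains, which carry the signal across the membrane. Src family kinases phosphorylate CD3, a second kinase docks on the phosphorylated chains, and an adaptor in the membrane then gathers the enzymes that raise calcium and activate protein kinase C and Ras. Naive T cells keep this machinery at rest, and CD8+ T cells that meet their antigen over a long time, as in chronically inflamed liver, can take on an exhausted state with inhibitory receptors on the surface.

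The genes differ widely in length, which matters for a kit that primes cDNA from runs of A at the 3′ end of an RNA and can also prime from A runs inside introns. On GRCm39, Lat spans 5.82 kb (chr7:125962996-125968810, minus strand), Cd3e 10.9 kb (chr9:44910037-44920925, minus strand), Zap70 21.1 kb (chr1:36800837-36821905, plus strand) and Lck 25.3 kb (chr4:129442137-129467434, minus strand). Cd28 spans 56.6 kb (chr1:60755959-60812518, plus strand) and Ptprc 113 kb (chr1:137990599-138103446, minus strand). The longest are Prkcq with 129 kb (chr2:11176911-11306043, plus strand), Fyn with 197 kb (chr10:39244851-39442227, plus strand) and Themis with 215 kb (chr10:28544356-28759814, plus strand). The introns of Themis hold 19 runs of at least 12 A on the sense strand, those of Fyn 9, Cd28 4, Prkcq 3, Lck 2, and Cd3e and Ptprc 1 each. Lat and Zap70 hold none, and 49.3% of all annotated genes of the series hold at least 1. The longest such run of each of 5 genes is shown on the sense strand with 20 bases on either side and the run in capitals. All are intronic, from the genes with the most runs to those with 1.
Themis, chr10:28587713-28587789, plus strand: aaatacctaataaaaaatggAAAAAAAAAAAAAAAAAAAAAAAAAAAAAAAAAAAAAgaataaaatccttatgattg
Fyn, chr10:39422255-39422323, plus strand: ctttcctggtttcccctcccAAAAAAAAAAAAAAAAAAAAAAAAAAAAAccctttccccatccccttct
Prkcq, chr2:11298762-11298834, plus strand: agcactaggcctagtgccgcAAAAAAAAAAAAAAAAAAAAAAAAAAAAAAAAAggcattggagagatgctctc
Ptprc, chr1:137994044-137994095, minus strand: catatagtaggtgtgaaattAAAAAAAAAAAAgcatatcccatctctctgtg
Cd3e, chr9:44917323-44917374, minus strand: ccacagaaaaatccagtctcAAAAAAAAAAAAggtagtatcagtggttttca
The run of Themis is 37 bases long and lies 43.4 kb from the start of the gene, and that of Prkcq is 33 bases long and lies 122 kb from the start. How many UMIs arose at these places was not tested. In GENCODE M39, unnamed or provisional transcripts overlap Cd3e, Prkcq and Ptprc on the same strand, and a microRNA lies within Lck and within Lat. Reads of these stretches may be dropped or counted for either gene only where the annotation used for counting also holds these transcripts, which was not checked.

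Values by library are given throughout in a fixed order, the 24-week pair first (P-LC24, then P-HC24) and the 32-week pair after it (I-LC32, then I-HC32). The libraries held 38590989, 63343950, 61506242 and 77373180 UMIs after filtering. Between 12 and 30 cell barcodes occurred in both libraries of a pair, at most 0.609% of the smaller library. T cells were gated on UMIs of Cd3d, Cd3g and the receptor constant chains, so that none of the 9 genes took part in a gate. The naive CD4 class had 60, 51, 126 and 76 cells. The naive CD8 class had 65, 65, 53 and 18 cells. Memory-like CD8 cells (Ly6c2 with Ccl5 or Nkg7, without Tox and Pdcd1) numbered 96, 152, 169 and 58. Exhausted-like CD8 cells (at least 2 of Tox, Pdcd1 and Gzmk) numbered 147, 63, 230 and 143. With 18 cells in I-HC32 the naive CD8 class was left out of Int. Regulatory CD4 T cells, with 1 to 12 cells per library, were too few to be described.

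Markers outside the gates were used to check the class names. The 6 naive markers (Tcf7, Klf2, S1pr1, Il7r, Satb1 and Bach2) summed to between 4969 and 7540 CPM (the UMIs of a gene scaled to all UMIs of the class and library) in naive cells and to between 1342 and 2824 CPM in exhausted-like cells. In memory-like cells they summed to 4521, 3665, 3977 and 5005 CPM, which reached into the naive range. The 7 exhaustion markers (Lag3, Tigit, Ccl4, Cd160, Ccl3, Entpd1 and Eomes) summed to between 649.5 and 2050 CPM in exhausted-like cells, against 84.0 to 119.7 CPM in memory-like and 2.97 to 62.1 CPM in naive cells. In NK cells they summed to 1370, 1637, 1217 and 1101 CPM, so that they do not set exhausted-like cells apart from NK cells. The 6 memory markers did not set the memory-like class apart: they summed to between 814 and 1004 CPM there and to between 1025 and 1323 CPM in exhausted-like cells. Memory-like CD8 is thus used only as the name of its gate. Sequencing depth also differed between the gates, with a median of 8934 to 10994.5 UMIs per memory-like cell and of 5890 to 6426.5 per exhausted-like cell.

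Among T, B and NK cells, Cd3e and Themis were seen almost only in T cells, and the others were shared with NK cells or more widely. B cells were gated without a UMI of Cd3d, Cd3g or the receptor constant chains, and NK cells without Cd3d, Cd4, Cd8a and Cd8b1. Low levels of T cell genes there thus follow in part from the gates. Cd3e, the CD3 epsilon chain, was at 243 to 419 CPM in naive CD4 cells and at 0.329 to 0.643 CPM in B cells, and Themis, a T lineage protein that tunes receptor signalling during selection, was at 0.192 to 0.371 CPM in B cells. In NK cells Cd3e had 1, 0, 1 and 0 UMIs and Themis 1, 2, 0 and 0 UMIs. The share of cells with a Cd3e UMI was 91.7%, 84.3%, 81.0% and 69.7% in naive CD4 cells and at most 0.432% in B cells, at median depths of 5581.5 to 7363.5 and 5885 to 8688 UMIs. Zap70, Lat, Prkcq and Cd28 were likewise seen in at most 0.851% of B cells in any library.

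Both Src family kinases reached beyond T cells. Lck, which binds the CD4 and CD8 co-receptors, was at 225 to 258 CPM in NK cells and 5.64 to 8.60 CPM in B cells. Fyn, the more widely used kinase, was at 437 to 673 CPM in NK cells, 72.9 to 124.8 CPM in B cells and 132 to 222 CPM in monocytes. Prkcq, protein kinase C theta, was at 223 to 425 CPM in NK cells, and Ptprc (CD45), the phosphatase of all leukocytes, was at 463 to 841 CPM in B cells.

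**Figure D1:**
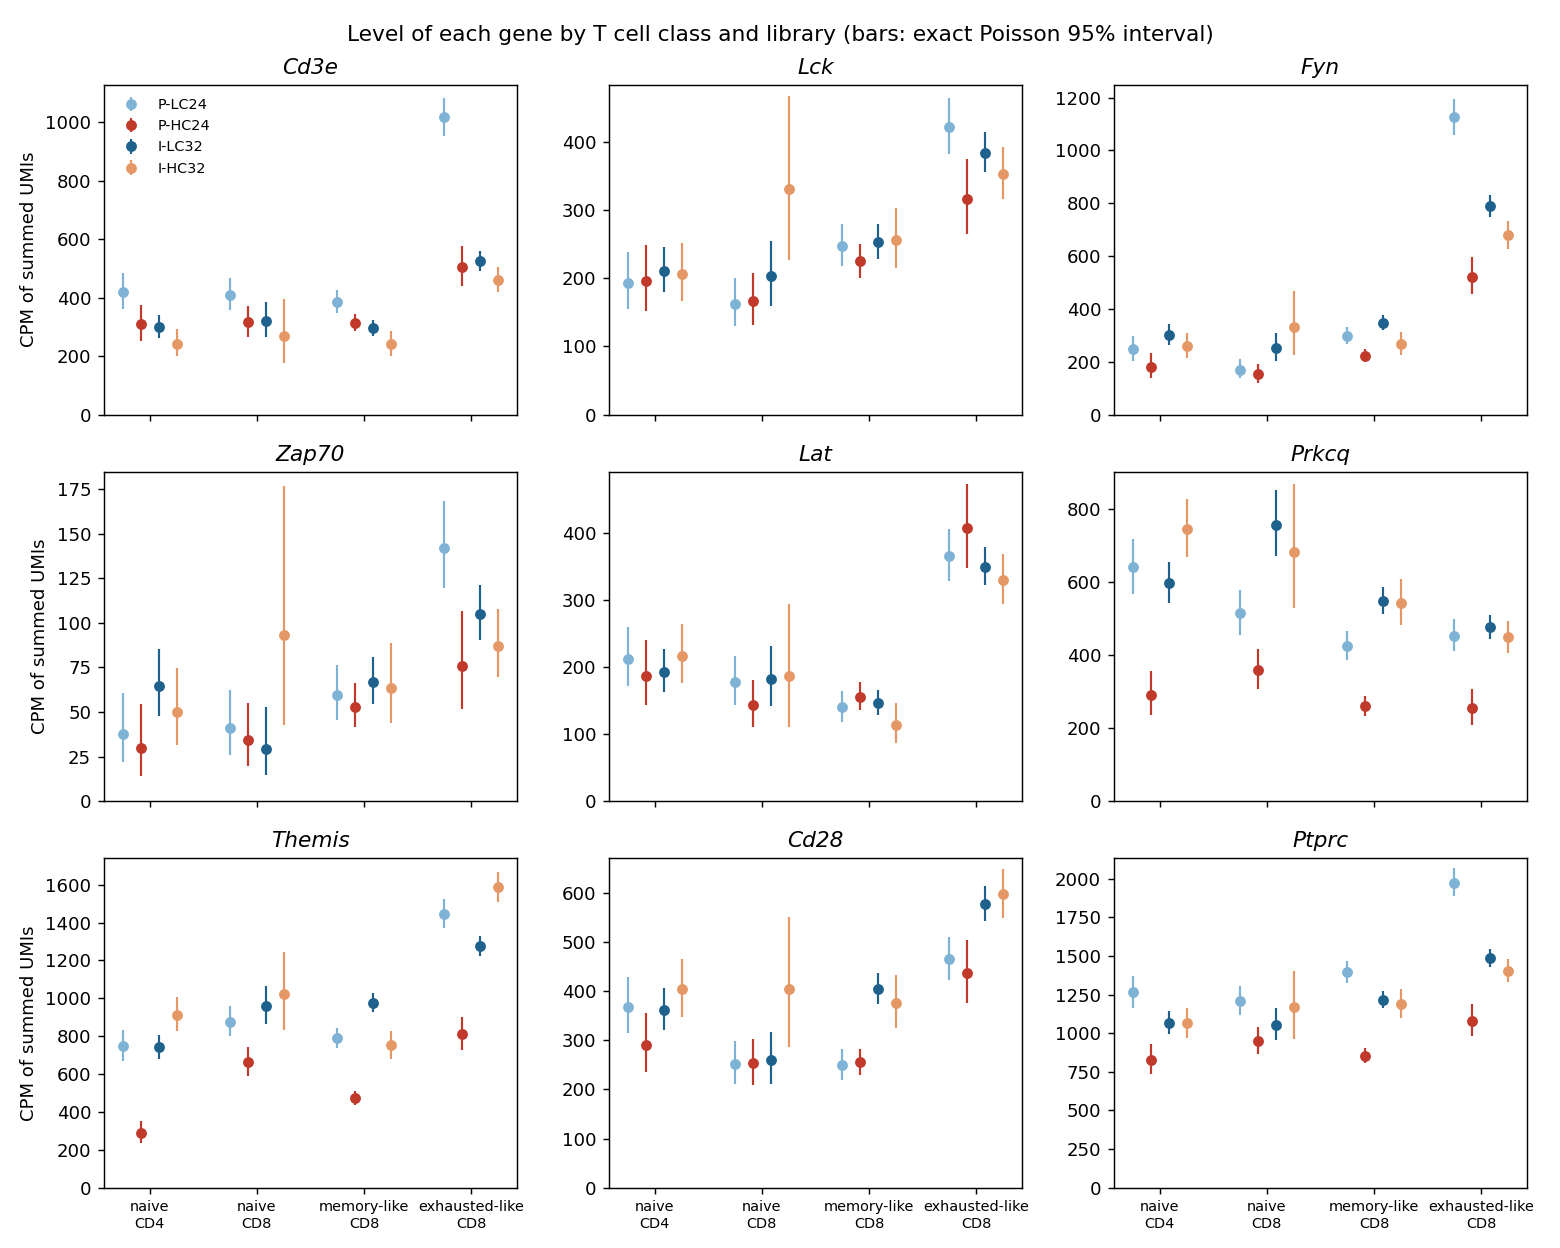
Level of each of the 9 genes in the 4 T cell classes, as CPM of summed UMIs (vertical axis, linear from 0), with 1 point per library and bars for the exact Poisson 95% interval. Fyn lies between 522 and 1125 CPM in exhausted-like CD8 cells and between 153 and 331 CPM in naive CD8 cells, and in each class P-HC24 has the lowest Prkcq and Themis.

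Differences between the classes were tested over the 4 libraries, with the library as a block, by edgeR's quasi-likelihood test across 6804 genes and a Benjamini-Hochberg adjusted p under 0.05. The spread between libraries here includes diet, week and mice. Of the 9 genes, 7 differed between exhausted-like and naive CD8 cells, 6 higher and 1 lower, against 29.1% of all genes (14.2% higher and 14.9% lower). The median log2 fold change was 0.67 for the 9 genes and -0.01 for all genes tested. Fyn was at 1125, 522, 789 and 678 CPM in exhausted-like cells and at 170, 153, 251 and 331 CPM in naive CD8 cells. The exhausted-like libraries all lay above the naive ones. The difference was 3.17-fold (log2 1.67 ± 0.15 SE, edgeR adjusted p = 6.08e-10).

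Cd3e was at 1016, 505, 524 and 460 CPM in exhausted-like and at 409, 315, 321 and 269 CPM in naive CD8 cells, a log2 difference of 0.67 ± 0.12 (SE, edgeR adjusted p = 4.46e-05). P-LC24 was the highest library in both classes, and the ranges did not overlap. Without the library block the call was lost, at a log2 difference of 0.65 (edgeR adjusted p = 0.0545). Lck rose by log2 0.69 ± 0.13 (SE), from 216 ± 79.0 to 369 ± 45.0 CPM (mean ± SD, n = 4 libraries, edgeR adjusted p = 0.000109). Zap70, the kinase that docks on phosphorylated CD3, rose 2.15-fold (log2 1.10 ± 0.23 SE, edgeR adjusted p = 0.000476), from 49.4 ± 29.5 to 102 ± 29.1 CPM. It was higher in 3 of 4 libraries, and I-HC32, with 9 naive UMIs of the gene, was the exception. Lat, the membrane adaptor that Zap70 phosphorylates, rose by log2 0.87 ± 0.13 (SE, edgeR adjusted p = 4.69e-06), and Cd28, the costimulatory receptor for CD80 and CD86, by 0.64 ± 0.12 (SE, edgeR adjusted p = 0.000129). Both were higher in 4 of 4 libraries.

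Prkcq moved the other way. It was at 453, 255, 475 and 448 CPM in exhausted-like cells and at 514, 358, 757 and 683 CPM in naive CD8 cells, lower in each library. The log2 difference was -0.73 ± 0.12 (SE, edgeR adjusted p = 1.32e-05), that is 1.66-fold lower. Themis (0.28 ± 0.13 SE, edgeR adjusted p = 0.104) and Ptprc (0.19 ± 0.10 SE, edgeR adjusted p = 0.165) did not pass. Both depended on the fit: without TMM factors both passed as higher, Ptprc also passed in DESeq2 (0.22, adjusted p = 0.0246), and Themis without a filter on low counts (0.36, adjusted p = 0.0330). Ribosomal protein genes took 20.1% to 27.9% of the UMIs of exhausted-like cells and 27.7% to 37.4% of those of naive CD8 cells, and the part of this in the differences was not tested.

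Set against memory-like cells, exhausted-like cells had 7 of the 9 genes higher and 1 lower, against 25.6% of all genes called (12.4% higher and 13.2% lower). Fyn was 2.22-fold higher (log2 1.15 ± 0.13 SE, edgeR adjusted p = 2.87e-08). Memory-like cells held 298, 221, 347 and 266 CPM of it, all below the exhausted-like values. Lat was at 365, 406, 349 and 329 CPM in exhausted-like cells and at 140, 156, 146 and 114 CPM in memory-like cells. It was thus 2.11-fold higher (log2 1.08 ± 0.11 SE, edgeR adjusted p = 1.19e-08) with no overlap of libraries. Cd3e differed by 0.69 ± 0.10, Themis by 0.49 ± 0.12 and Cd28 by 0.42 ± 0.11 (log2 ± SE, edgeR adjusted p = 5.84e-06, 0.00326 and 0.00316). Ptprc (0.06 ± 0.10 SE, edgeR adjusted p = 0.709) did not pass, although it was higher in 4 of 4 libraries, and without TMM factors it passed as higher (0.36, adjusted p = 0.00296). The make-up of the UMIs moved with this difference in each library. Ribosomal protein genes took 20.1% to 27.9% of the UMIs of exhausted-like and 33.6% to 41.6% of those of memory-like cells. Genes of over 100 kb took 16.4%, 10.8%, 14.6% and 14.8% against 12.5%, 9.16%, 13.4% and 13.2%, and 4 nuclear RNAs, mostly Malat1, summed to 17851, 10953, 12136 and 14776 CPM against 9860, 6937, 9247 and 8580 CPM. The part of these in the differences was not tested.

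Some of these calls depended on the libraries or the fit. Zap70 (0.47 ± 0.17, edgeR adjusted p = 0.0415) and Lck (0.31 ± 0.11, edgeR adjusted p = 0.0366) lost their call when P-LC24, P-HC24 or I-LC32 was left out. Zap70 also lost it in DESeq2 (log2 0.48), without a filter on low counts (0.44), with gates on thinned UMIs (0.38) and with each cell thinned to 3000 UMIs (0.46). Lck lost it without the filter (0.28), with gates on thinned UMIs (0.21) and with a co-receptor of at least 2 UMIs (0.29). Prkcq (-0.39 ± 0.11, edgeR adjusted p = 0.00793) was at -0.10 with an adjusted p of 0.506 without TMM factors. It lost its call without I-LC32, without I-HC32 and with each cell thinned (-0.33). Without I-LC32, 5 of the 9 genes passed, and without the library block 3, when Cd28 (adjusted p = 0.0722) and Themis (adjusted p = 0.159) were among those lost. Cd28 also missed the threshold when gates used thinned UMIs (0.34, adjusted p = 0.0516).

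**Figure D2:**
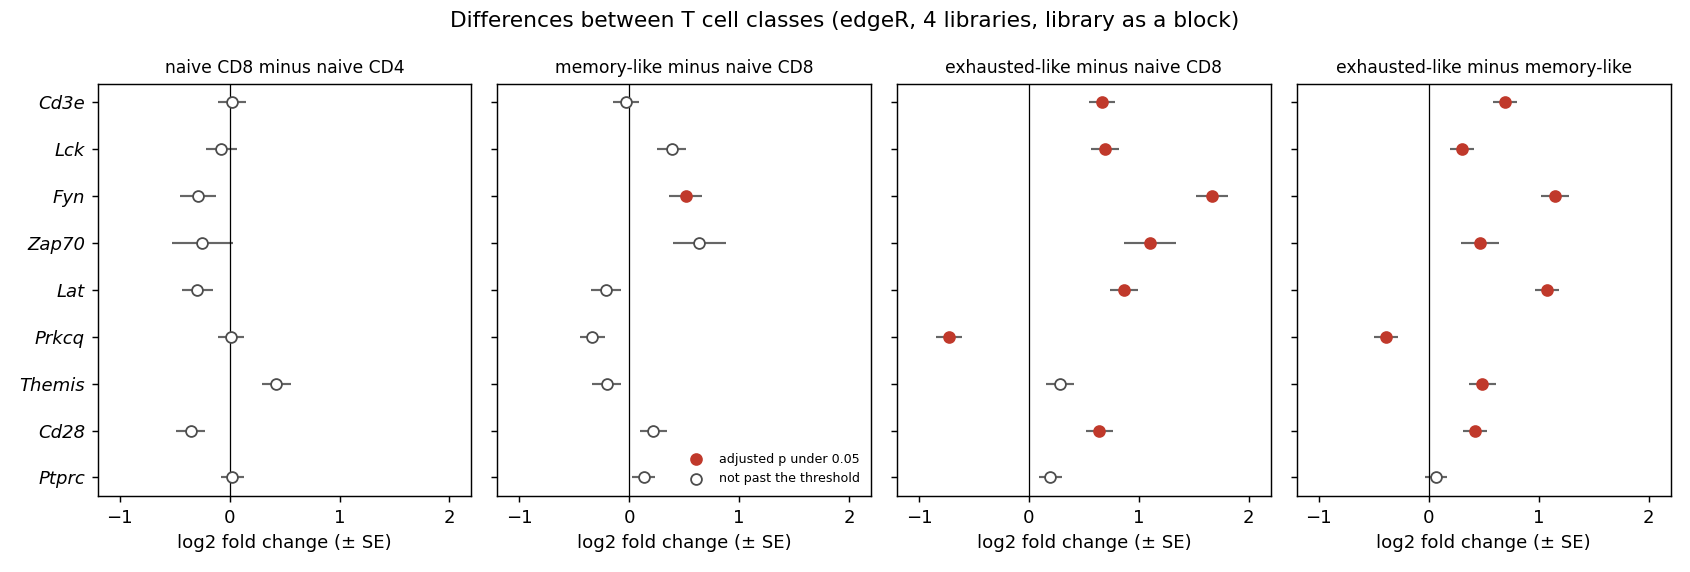
Log2 fold changes between T cell classes for the 9 genes (horizontal axis, bars for the standard error), with filled points where the edgeR adjusted p is under 0.05. Exhausted-like CD8 cells have 6 genes higher and Prkcq lower than naive CD8 cells, and none passed between the naive classes.

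The naive classes and the memory-like class lay closer together. Between naive CD8 and naive CD4 cells none of the 9 genes passed edgeR's test or DESeq2's, 3 had an unadjusted p under 0.05, and 3.56% of all genes were called. Themis came nearest, at 881 ± 157 CPM in naive CD8 and 673 ± 267 CPM in naive CD4 cells (mean ± SD, n = 4 libraries), and was higher in 4 of 4 libraries with an edgeR adjusted p of 0.0749. It passed without I-HC32 and, with Cd28 as lower, when gates used thinned UMIs. Between memory-like and naive CD8 cells Fyn alone passed, with a log2 difference of 0.51 ± 0.15 (SE, edgeR adjusted p = 0.0283), against 10.1% of all genes (5.58% higher). That call was lost without P-LC24, without P-HC24, without I-LC32 and in DESeq2, and without I-HC32, the library with 18 naive CD8 cells, 3 genes passed.

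Markers of NK cells were higher in some exhausted-like libraries. The 6 NK markers summed to 1680, 302, 645 and 215 CPM in exhausted-like cells and to 160.0, 170, 216 and 251 CPM in memory-like cells, so that I-HC32 was lower than its memory-like cells. In naive CD8 cells they summed to between 18.7 and 31.0 CPM. Gzma, a granzyme that cytotoxic T cells also use, was the most abundant of them in P-LC24, with 1472 CPM. Ncr1, which the gate required to be absent, was at 0 in the 4 libraries and Klrb1c at 0 in P-LC24, P-HC24 and I-HC32. The 8 B cell markers were higher in 2 libraries and lower in 2, and summed to 171, 383, 218 and 388 CPM in exhausted-like and 209, 258, 192 and 559 CPM in naive CD8 cells, against 22006 to 26047 CPM in B cells. The part of the NK markers in the differences was not tested.

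Around the 9 genes, a list of 74 further genes of the pathway was read by role, and 67 of them could be tested and were not part of a gate. In exhausted-like against naive CD8 cells, 22 were higher and 19 lower, where 14.2% of all genes were higher and 14.9% lower, and the median log2 fold change was 0.05. Of 18 adaptors 7 were higher and 2 lower, and of 8 kinases 1 was higher and 4 lower. The roles were not tested against each other. Among negative regulators 5 were higher and 3 lower of 15, and Ubash3b, a phosphatase that acts on Zap70, was higher by 1.94 ± 0.24. Of the downstream genes, Nfatc1, a calcium-dependent transcription factor, was higher by 1.35 ± 0.23 (log2 ± SE). Rasgrp1, a Ras activator, was at -0.53 ± 0.20 (SE, edgeR adjusted p = 0.0486). The most abundant adaptor, Skap1, did not pass (-0.20 ± 0.12 SE), nor did Cblb, a ubiquitin ligase that restrains signalling (-0.06 ± 0.12 SE).

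Against memory-like cells 23 of the 67 genes were higher and 9 lower, where 12.4% of all genes were higher and 13.2% lower, with a median log2 fold change of 0.13. Adaptors had 9 higher and 1 lower of 18. Ubash3b (1.59 ± 0.17 SE) and Nfatc1 (0.92 ± 0.17 SE) were again higher, and Cd226, a costimulatory receptor (-0.49 ± 0.17 SE), was lower.

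In Prog, most of the 9 genes were lower in P-HC24 than in P-LC24, in each class. A gene was compared with a UMI in at least 10% of cells and at least 100 UMIs over both libraries, and a ratio of at least 1.2-fold was counted as a description of the libraries. In naive CD4 cells 6 of 8 compared genes were lower and 0 higher (42.3% of all compared genes were lower), with a median log2 ratio of -0.44 against -0.12 for all genes. In naive CD8 cells 5 of 8 were lower (30.9% of all genes), with a median of -0.33 against -0.07. In memory-like cells 5 of 9 were lower (42% of all genes), with a median of -0.29 against -0.17, and in exhausted-like cells 7 of 9 (51% of all genes), with a median of -0.83 against -0.28. Unscaled, none was 1.2-fold higher in any class (background 27.4%, 18.8%, 18% and 17.5%). Zap70 had too few UMIs to be compared in the naive classes. Relative to the median gene of the class, 5, 4, 3 and 6 genes were lower, where the background was 34.7%, 24.1%, 26% and 31.9%, and 0, 0, 1 and 1 were higher, where it was 33.5%, 25%, 29% and 33.4%. The higher gene was Lat in both classes. By this measure, the count of lower genes in memory-like cells was near that of the background.

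Themis and Prkcq fell furthest in naive CD4 cells. Themis was at 746, 291, 742 and 913 CPM there, and Prkcq had 640, 291, 596 and 744 CPM. P-HC24 stood apart from the other libraries for both genes. The log2 ratio in Prog was -1.36 for Themis (interval -1.70 to -1.03, from 98 and 335 UMIs) and -1.14 for Prkcq (-1.48 to -0.80). Intervals are exact 95% intervals for the UMIs counted and cover counting error only.

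The same genes were lower in the CD8 classes. Themis was at -0.40 in naive CD8, -0.74 in memory-like and -0.83 in exhausted-like cells, and Prkcq at -0.52, -0.71 and -0.83. P-HC24 had the lowest Prkcq of the 4 libraries in each T cell class, and also in NK cells, with 421, 223, 425 and 373 CPM. Ptprc was at -0.61, -0.35, -0.71 and -0.87 in the classes in order, and P-HC24 again held the lowest level in each, as in B cells (841, 463, 610 and 660 CPM).

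Fyn had its largest ratio in exhausted-like cells, -1.11 (-1.32 to -0.90), next to -0.43 in memory-like, -0.15 in naive CD8 and -0.45 in naive CD4 cells. The naive ratios had intervals that included 0. In exhausted-like cells the 6 NK markers fell as well in this pair, from 1680 to 302 CPM, with Gzma the most abundant of them in P-LC24. By library, the 7 exhaustion markers summed to 2050, 1587, 846 and 649.5 CPM in exhausted-like cells. The 6 naive markers summed to 1342, 1885, 1959 and 2824 CPM there. The part of these markers in the ratios was not tested. Cd3e was at -1.01 (-1.23 to -0.79) in exhausted-like cells, -0.29 in memory-like, -0.38 in naive CD8 and -0.44 in naive CD4 cells, where a repeat with each cell thinned to 3000 UMIs gave 0.091. For Cd3e, P-LC24 stood high rather than P-HC24 low: P-LC24 was the highest and I-HC32 the lowest library in each of the 4 classes. Zap70 was at -0.91 (-1.51 to -0.35, 32 and 136 UMIs) in exhausted-like cells and at -0.17 (-0.67 to 0.34) in memory-like cells.

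Lck, Lat and Cd28 had ratios nearer to 0 in most classes, though not always relative to genes of their length. Lck was at 0.02, 0.03 and -0.14 in naive CD4, naive CD8 and memory-like cells, with intervals that included 0, and at -0.42 (-0.71 to -0.13) in exhausted-like cells. Lat was at 0.16 (-0.12 to 0.42) in exhausted-like and 0.15 (-0.15 to 0.46) in memory-like cells, and at -0.18 in naive CD4 and -0.32 in naive CD8 cells, with intervals that included 0. Cd28 was at -0.34 in naive CD4 cells and between -0.09 and 0.03 in the CD8 classes.

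These ratios were set beside gene length, taken as the span from the start to the end of the gene. In Prog longer genes had lower ratios, with Spearman's rho across genes of -0.63 in naive CD4 cells (951 genes), -0.36 in naive CD8 (1297 genes), -0.56 in memory-like (3082 genes) and -0.54 in exhausted-like cells (2390 genes). Genes are not independent replicates, and those of a class share libraries and depth. The bin of the shortest genes, among 10 bins of equal number, had a median log2 ratio of 0.30 in naive CD4 and 0.23 in exhausted-like cells, and that of the longest genes one of -0.64 and -0.66. The relation was not particular to T cells: rho was -0.56 in B cells, -0.53 in NK cells and -0.42 in monocytes. In Int, rho was -0.03, -0.01 and 0.09 in naive CD4, memory-like and exhausted-like cells. The number of intronic A runs gave rho of -0.55, -0.30, -0.46 and -0.43 in Prog in the 4 classes, and since longer genes hold more runs, the parts of length and of A runs were not tested apart.

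**Figure D3:**
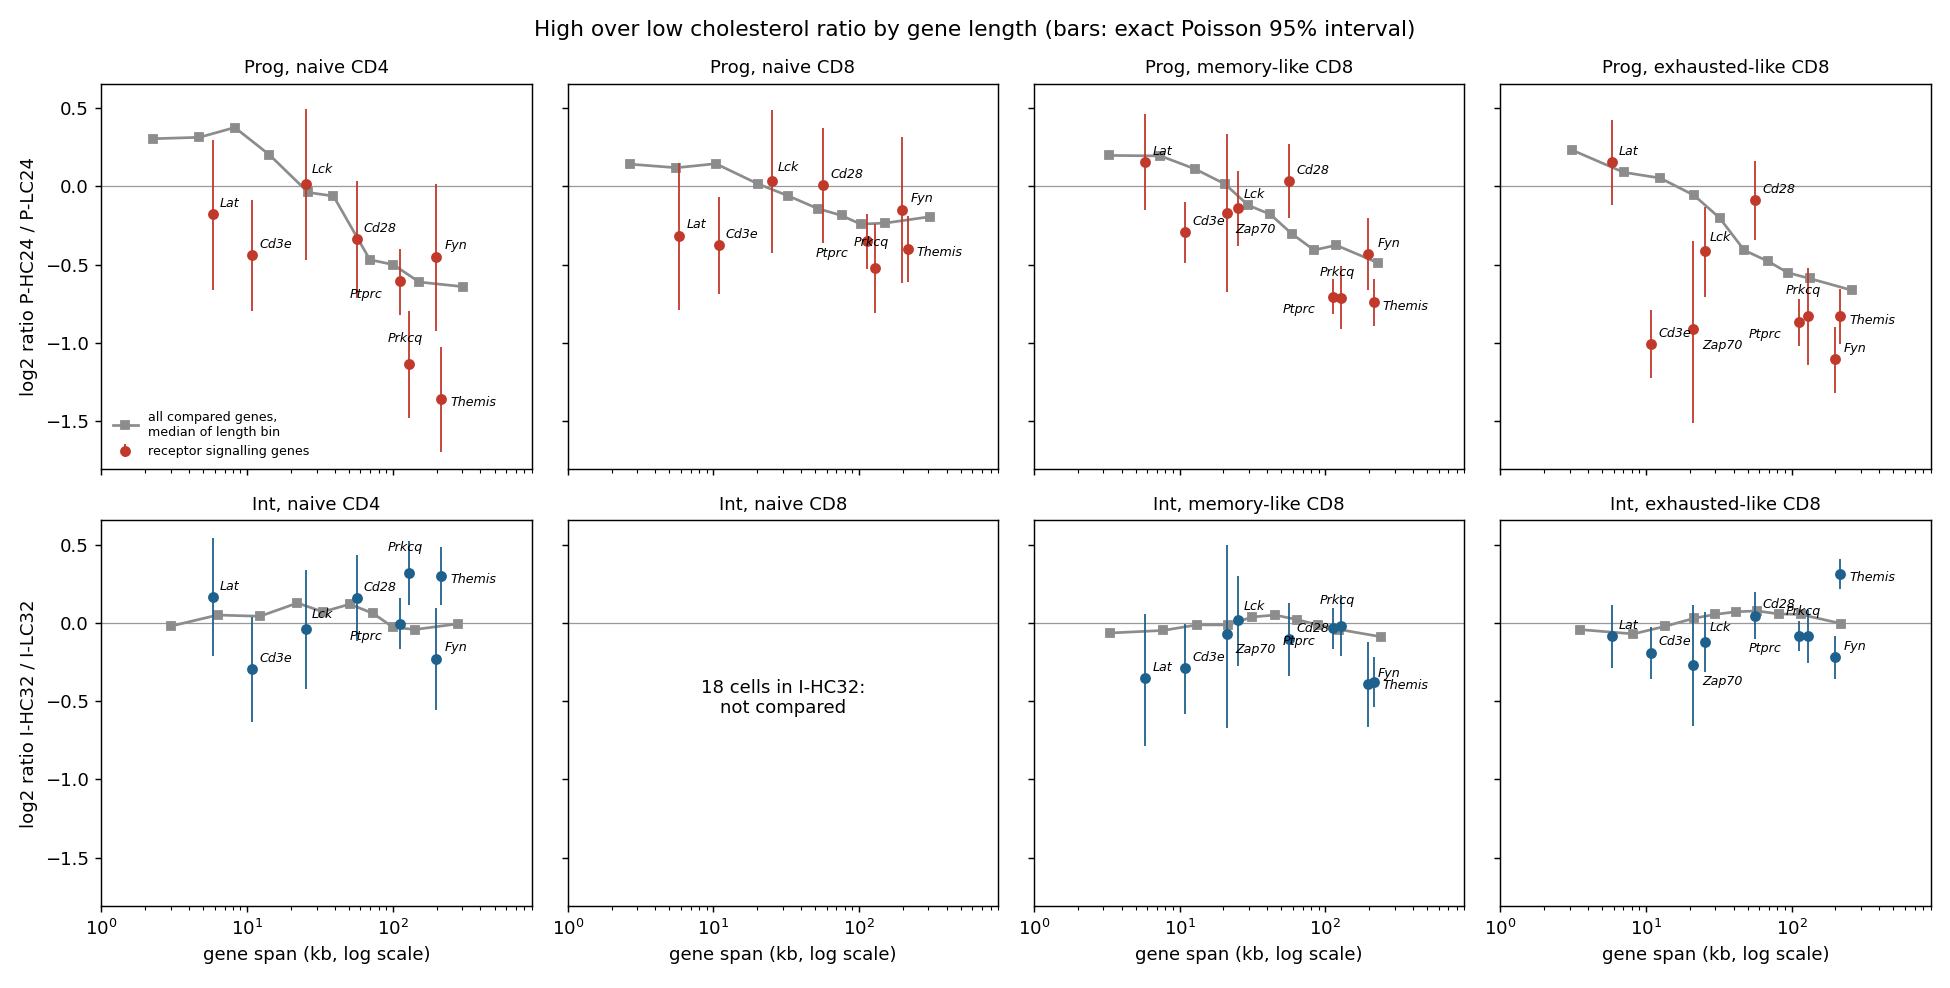
Log2 ratio of high over low cholesterol libraries against gene span (kb, log scale) in Prog (upper row) and Int (lower row), with grey squares for the median of all compared genes in 10 length bins and coloured points for the 9 genes with exact Poisson 95% intervals. In Prog the bins fall from 0.30 to -0.64 in naive CD4 cells, while in Int they stay near 0, and naive CD8 cells were not compared in Int.

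Against genes of their own length, the 9 genes fell into different positions. Cd3e, a short gene, lay below its length bin in each class. The distance was 0.65 in naive CD4, 0.52 in naive CD8, 0.41 in memory-like and 1.06 in exhausted-like cells. Of the genes of the bin, 8.51%, 9.30%, 15.3% and 2.94% lay lower in these classes. The naive CD4 ratio of Cd3e was 0.091 with each cell thinned to 3000 UMIs. Zap70 lay 0.85 below its bin in exhausted-like cells. Lat lay 0.49 and 0.44 below its bin in naive CD4 and naive CD8 cells and within 0.07 of it in the other classes. Ptprc lay below its bin by 0.11, 0.11, 0.33 and 0.28. Themis lay below its bin by 0.72, 0.21, 0.25 and 0.17, and Prkcq by 0.54, 0.29, 0.34 and 0.24 in the same order of classes. Cd28 lay above its bin in each class, by 0.14, 0.15, 0.34 and 0.32. Fyn lay above its bin by 0.19, 0.09 and 0.06 in naive CD4, naive CD8 and memory-like cells and 0.45 below it in exhausted-like cells. Lck was within 0.07 of its bin outside exhausted-like cells. The median distance of the compared genes from their bins was -0.30, -0.16, -0.19 and -0.28. Relative to the median gene of the class, their median ratio was -0.32, -0.26, -0.13 and -0.55. In memory-like cells the distance from the bin was thus the larger value.

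The make-up of the UMIs also moved with P-HC24. Genes of over 100 kb took 14.0%, 9.30%, 14.0% and 14.5% of the UMIs of naive CD4 cells and 16.4%, 10.8%, 14.6% and 14.8% of those of exhausted-like cells, and the P-HC24 share was the lowest in each class. Ribosomal protein genes took 33.9%, 41.4%, 30.9% and 30.9% of the UMIs of naive CD4 cells, and mitochondrial genes 3.39%, 4.72%, 4.12% and 3.44%, with P-HC24 highest. The nuclear RNAs Malat1, Neat1, Kcnq1ot1 and Meg3 summed to 14431, 9975, 13952 and 14464 CPM there, nearly all of it Malat1, and Meg3 was at 0. In exhausted-like cells this sum was 17851, 10953, 12136 and 14776 CPM, so that P-LC24 was also high. From P-LC24 to P-HC24, 9 genes of cell stress went from 1836 to 2272 CPM in naive CD4 and from 1457 to 2089 CPM in naive CD8 cells. In memory-like cells they went from 1628 to 1765 CPM and in exhausted-like cells from 1498 to 1920 CPM. From I-LC32 to I-HC32 they went from 2440 to 2699, 1617 to 1625 and 1249 to 1632 CPM in the classes compared in Int. Markers of other cells were higher in P-HC24 as well. The 8 B cell markers, with Ighm or Igkc the most abundant, went from 212 to 312 CPM in naive CD4, 209 to 258 in naive CD8, 146 to 201 in memory-like and 171 to 383 in exhausted-like cells from P-LC24 to P-HC24. The 6 myeloid markers, mostly Lyz2, went from 22.3 to 80.2, 14.9 to 128, 29.7 to 99.3 and 36.6 to 104 CPM in the same order. Csf1r and Adgre1, which the gates required to be absent, were at 0. Both sums were also higher in I-HC32 than in I-LC32, with B cell markers at 336 over 202, 209 over 173 and 388 over 218 CPM and myeloid markers at 219 over 23.6, 165 over 22.0 and 216 over 39.5 CPM in the classes compared in Int. The part of RNA quality, cell stress, nuclear RNA, RNA of other cells and handling in the ratios was not tested.

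**Figure D4:**
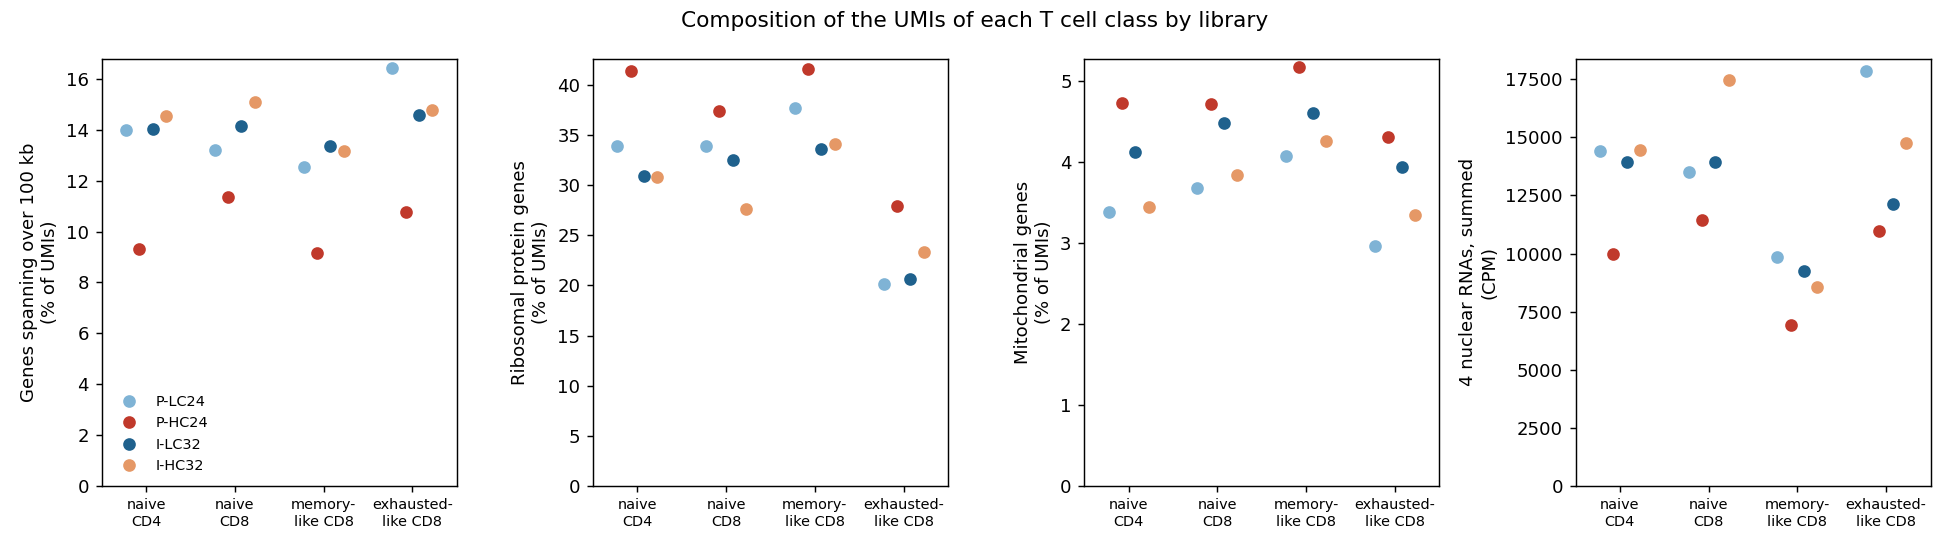
Share of UMIs from genes over 100 kb, from ribosomal protein genes and from mitochondrial genes (%), and summed CPM of 4 nuclear RNAs, in each T cell class, with 1 point per library. P-HC24 has the lowest share of long genes and the highest ribosomal and mitochondrial shares in each class.

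In Int the median ratio of the 9 genes was nearer to 0 than in Prog in the 3 classes compared, at 0.08 in naive CD4, -0.10 in memory-like and -0.08 in exhausted-like cells. With mean UMIs per cell the exhausted-like value was -0.27. Single genes did not always follow: in memory-like cells Lat was at -0.35 in Int and 0.15 in Prog, and Cd3e was at -0.29 in both. In naive CD4 cells 2 of 8 compared genes were at least 1.2-fold higher in I-HC32 (background 23.4%) and 1 lower (17.7%). The higher ones were Prkcq, at 0.32 (0.11 to 0.53), and Themis, at 0.30 (0.11 to 0.48), and the lower one was Cd3e, at -0.30 (-0.63 to 0.04). In memory-like cells 0 of 9 were higher (18.5%) and 4 lower (23.5%), namely Fyn at -0.39 and Themis at -0.38 beside Lat and Cd3e. Lat had an interval that included 0. In exhausted-like cells Themis was higher, at 0.31 (0.22 to 0.41), where the background was 22.1%, and Zap70 was lower, at -0.27 (-0.66 to 0.11), where it was 19.6%. Ptprc was at -0.03 in memory-like and -0.08 in exhausted-like cells and Lck at -0.04, 0.02 and -0.12 in the 3 classes, all with intervals that included 0. Over all gated CD8 T cells in place of the classes, 0 of 9 genes passed 1.2-fold in Int (background 23.8% higher and 11.9% lower) and 7 were lower in Prog (46.9%). Over all gated CD4 T cells in Int, Themis was at 0.04 (-0.07 to 0.14) and Prkcq at 0.43 (0.30 to 0.56).

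Genes of the wider pathway were counted in the same way in Prog. Of the listed genes, 3 were higher and 16 lower of 22 compared in naive CD4 cells, 7 and 9 of 30 in naive CD8, 4 and 32 of 56 in memory-like and 6 and 32 of 49 in exhausted-like cells. Of all genes, 42.3%, 30.9%, 42% and 51% were lower in these classes, and 27.4%, 18.8%, 18% and 17.5% were higher. The count of lower genes in naive CD8 cells was thus near that of the background. The lowest medians over classes were those of Nfatc1 (-1.27 over 2 classes), Rasgrp1 (-0.87 over 3) and Cd226 (-0.71 over 3). The highest were those of Coro1a, an actin regulator of T cells (0.49 over 4 classes), Cd2, an adhesion receptor (0.49 over 4), and Orai1, the pore of the calcium channel (0.24 over 2). Slamf6, a receptor of progenitor-like T cells, was at 0.94 (0.44 to 1.45) in exhausted-like cells. In naive CD8 cells it was at 0.21, in naive CD4 at -0.24 and in memory-like at -0.32, with intervals that included 0.

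In Int 10 were higher and 6 lower of 41 in naive CD4 cells, 13 and 15 of 54 in memory-like and 13 and 13 of 62 in exhausted-like cells. These counts lay near the shares of all genes, which were 23.4%, 18.5% and 22.1% higher and 17.7%, 23.5% and 19.6% lower. High median ratios over 3 classes were those of Rasgrp1 (0.45) and Ptpn2, a phosphatase that restrains receptor signalling (0.44). Ubash3b (-0.88 over 2 classes) and Cd226 (-0.73 over 2) had the lowest. Cd247, the zeta chain of the receptor complex, was at -0.32 (-0.52 to -0.13) in exhausted-like cells. It was at -0.10 in naive CD4 and 0.03 in memory-like cells, where the intervals included 0. From P-LC24 to P-HC24 Cd247 went from 410 to 330 CPM in naive CD4 and from 424 to 326 CPM in naive CD8 cells. In memory-like cells it went from 280 to 207 CPM and in exhausted-like cells from 366 to 288 CPM.

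Across the 16 sums of class and library, 8 of the 9 genes followed the mean of all 9, with Pearson's r of 0.97 for Fyn down to 0.71 for Cd3e, each gene being part of that mean. Prkcq had an r of 0.18. Of 3498 other genes with at least 500 UMIs, those most like the mean were Arl15 (r = 0.96), Ttc39b and Inpp5d (both 0.94), and Fryl and AU020206 (both 0.93). These genes span 363, 104, 100, 237 and 42.1 kb in the same order. The 16 sums share libraries and cell classes, so these values describe them and carry no test.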

How the data were processed

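Whole-number UMI counts deposited by the authors came from Cell Ranger 9.0.1 on GRCm39 (10x 3′ libraries) and were not normalized. Whether intronic reads were counted is not given in the sources used here. Cells with under 500 UMIs, under 300 genes or over 10% mitochondrial UMIs were removed, then the top Scrublet scores (scanpy 1.11.5, 0.8% per 1000 cells). Gates used raw UMIs, with the naive CD8 gate leaving out exhausted-like cells, and a class was compared with at least 30 cells in both libraries. UMIs were summed per class and library, scaled to CPM, and given exact Poisson or binomial 95% intervals. Classes were tested with edgeR 4.0.16 (R 4.3.3; TMM, library as a block), with DESeq2 1.42.0 as an alternative, checked on simulated data. Gene spans came from GENCODE M39 on GRCm39, which matched 98.5% of features, and is newer than the annotation the counts were made with. Pathway genes named are the most abundant of each role and the 3 highest and 3 lowest median ratios, and others named were chosen after their values were seen. Some genes that this rule picks are not reported here. The 9 genes, lists and tests were chosen with earlier results of these data known.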

Additional observations from a re-analysis of the deposited data

Results flagged for a closer look

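Opposite directions in Prog and Int, counted where both ratios were at least 1.2-fold with intervals that left out 0, were found for 2 genes. Themis in naive CD4 cells had a log2 ratio of -1.36 in Prog and 0.30 in Int. Over all gated CD4 T cells it was at -0.65 in Prog and 0.04 in Int, where the interval included 0. In exhausted-like CD8 cells Themis was at -0.83 in Prog and 0.31 in Int. Prkcq in naive CD4 cells was at -1.14 in Prog and 0.32 in Int. Within Int, by the same limits, Themis also took opposite directions between classes, with 0.30 in naive CD4, -0.38 in memory-like CD8 and 0.31 in exhausted-like CD8 cells. With 1 library per condition, none of these differences was tested.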

How the results depend on the processing

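Libraries have no replicate, so ratios in Prog and Int describe libraries, and small classes limit them. Of the summary results, 173 values stayed within their limits and 27 moved. The median ratio of the 9 genes moved to -0.60 in Prog with all gated CD8 T cells in place of memory-like cells, an alternative chosen after seeing the data, and to -0.27 in Int in exhausted-like cells with mean UMIs per cell. With each cell thinned to 3000 UMIs, Cd3e in naive CD4 cells reversed to 0.091 in Prog. The cause was not tested. Genes called between naive CD8 and naive CD4 cells (242) became 120 without the library block, 160 with a co-receptor of at least 2 UMIs, 94 with thinned cells, and 122 to 193 with a library left out. Of the 9 genes, 2 were then called with gates on thinned UMIs, and 0 to 1 with a library left out. Between memory-like and naive CD8 cells (1 of the 9, 688 genes), 0 of the 9 were called without the block and in DESeq2, and 2 without a filter and with thinned gates, and 0 to 3 with a library left out. Genes there became 337 without the block, 370 with thinned cells, and 389 to 586 with a library left out. Between exhausted-like and naive CD8 cells, 1981 genes became 1065 with thinned cells. Between exhausted-like and memory-like cells (8 of the 9, 1739 genes), 3 of the 9 were called without the block, 5 with thinned gates, and 5 to 7 with a library left out, and genes became 2666 without TMM factors and 870 with thinned cells. The median distance of the compared genes from their length bins kept its direction with exonic length, 5 bins, a lower filter and protein-coding genes alone.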
